A study of Arabidopsis thaliana with 12 samples.

Results

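Seedlings in which the H3.3 histone is labelled as carrying a T31A substitution were compared with seedlings of the methyltransferase mutant efs, at the level of every transcript that could be tested. The comparison used 3 T31A libraries and 3 efs libraries. It took in every gene that reached 1 TPM in 3 or more of these 6 libraries, which were 19522 of the 23916 genes in the deposited table. TPM is a read count scaled to the length of the gene and to the depth of the library.

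All plants were Arabidopsis thaliana seedlings of 10 days, grown in long days (16 h light, 8 h dark) at 22 °C, and total RNA was sequenced. The T31A plants are labelled h3.3ko;HTR5 T31A, an H3.3 knockout that carries a copy of the H3.3 gene HTR5 with alanine in place of threonine 31. The efs plants are mutated in EFS, also known as SDG8, and the labels do not give the lesion or a knockout or added copy in this line. The K36A plants, labelled h3.3ko;HTR5 K36A, have a like HTR5 copy in which alanine replaces lysine 36, and Col is the wild type. Both served here as side values, with 3 libraries each. Knockout plants with an unmutated HTR5 copy were not analysed here. A difference between T31A and efs therefore holds the effects of the knockout, the added copy, the substitution and the efs lesion together. Whether the 3 libraries of a genotype were grown as separate cultures, and how many independent lines they stand for, is not stated. The p-values therefore measure the spread among these samples, which may be technical.

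Histone H3.3 is the replacement form of histone H3 that is placed into chromatin outside DNA replication, and the threonine in its tail is the residue by which it differs there from the replication-linked H3.1. EFS adds methyl groups to lysine 36 of histone H3 over transcribed genes. In Arabidopsis this mark is known for keeping the flowering repressor FLC active, and plants without EFS are known to flower early, to branch more and to express little of the carotenoid isomerase gene CRTISO. Setting the altered histone beside the mutant writer asks which transcripts the 2 lesions leave at different levels.

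Recovered reads numbered 34098032, 22334113 and 21020260 in the T31A libraries and 20271483, 17621000 and 18418829 in the efs libraries, so T31A replicate 1 was the deepest. Across the tested genes, log2(TPM + 1) correlated at 0.9939 to 0.9951 among libraries of one genotype and at 0.9621 to 0.9654 between T31A and efs, and the first principal component, with 81.6% of the variance, separated the genotypes. These correlations are across genes, which are not independent replicates. Leaf antenna transcripts and root markers were both detected in every library of these whole seedlings.

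The T31A and efs transcriptomes differed at many genes by small amounts and at few genes by large ones. At an adjusted p under 0.05 (limma with Benjamini-Hochberg adjustment over the 19522 genes), 9539 genes were called, which is 48.9% of those tested. Of these, 4024 (20.6% of the tested genes) were higher and 5515 (28.3%) were lower in T31A. Most of the called genes, 6758, differed by less than 1.5-fold. A difference of 2-fold or more on the log2(TPM + 1) scale was reached by 924 called genes (4.73%), with 415 (2.13%) higher and 509 (2.61%) lower in T31A. A 4-fold difference was reached by 40 genes that were higher and 32 that were lower. The 3 libraries of T31A lay all above or all below the 3 of efs in 57.2% of the tested genes.

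The median log2 difference over all tested genes was -0.049, and the balance of directions among small changes depended on scale. Genes higher in T31A made up 42.2% of the calls on the deposited values, against 52.3% with median-of-ratios factors, 49.7% after quantile normalization and 51.6% after a trend with length and GC content was removed. Among the 2-fold calls the share that was higher in T31A was 44.9% on the deposited values and 51.8%, 52.0% and 56.5% in the same 3 settings. Counts of small changes in one direction are therefore given below beside their medians.

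**Figure D1:**
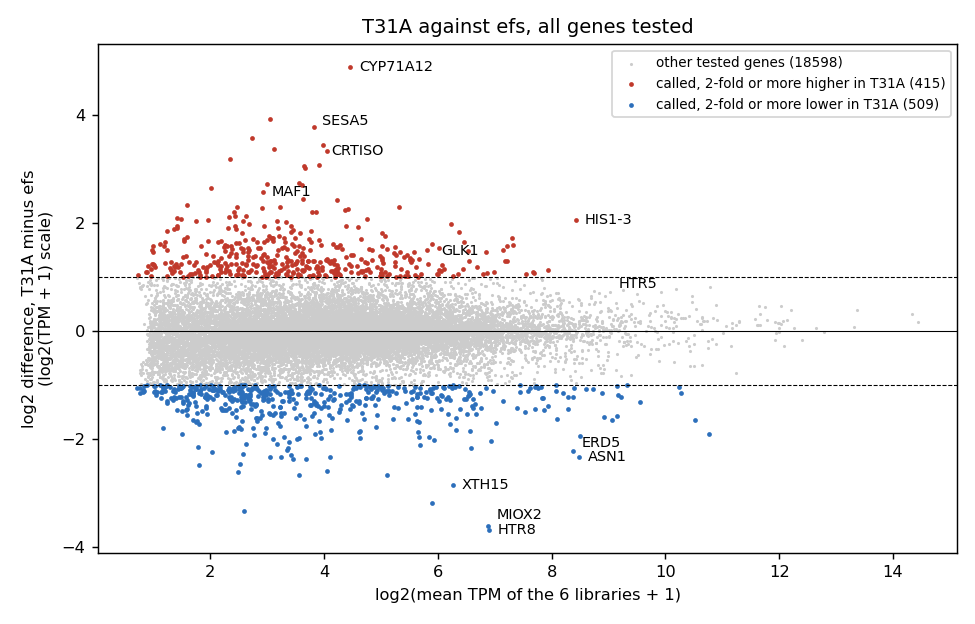
Log2 difference between T31A and efs (vertical axis, log2(TPM + 1) scale) against the log2 mean level of the 6 libraries (horizontal axis) for the 19522 tested genes, 1 point per gene. The 415 genes called at 2-fold or more higher in T31A lie above the upper dashed line, the 509 lower genes lie below the lower one, and CYP71A12 (4.88) and HTR8 (-3.68) mark the extremes.

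The H3.3 genes were read first, because they define the T31A line. HTR8 (AT5G10980), 1 of the 3 genes that encode H3.3, had 18.7, 12.4 and 18.3 TPM in T31A seedlings, against 224, 214 and 220 TPM in efs seedlings. The groups did not overlap, and HTR8 showed the largest fall of the comparison, a log2 difference of -3.68 (SE 0.12, adjusted p = 1.41e-09). K36A seedlings averaged 20.7 TPM, near T31A, and Col seedlings averaged 129.7 TPM. HTR5 (AT4G40040), the gene that the added copy comes from, had 644, 633 and 681 TPM in T31A and 396, 385 and 400 TPM in efs, a rise of 0.73 log2 units (SE 0.05, adjusted p = 2.06e-07). Native and added HTR5 transcripts cannot be told apart in these values. HTR4 (AT4G40030), the remaining H3.3 gene, averaged 192 ± 9.05 TPM in T31A and 262 ± 6.92 TPM in efs (SD, n = 3 each), a fall of 0.45 log2 units. EFS (AT1G77300) had 18.5, 20.3 and 14.6 TPM in T31A and 14.7, 14.9 and 16.6 TPM in efs. Its groups overlapped and it was not called (adjusted p = 0.169), so its transcript level did not check the efs label, and the gene overlaps the annotated AT1G77290. It was called, at log2 differences of 0.22 to 0.31, in 3 of 18 other settings. Of these 4 genes 1 rose and 2 fell, against 20.6% and 28.3% of all tested genes. H3.3 genes are close copies whose shared reads may have been split.

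The neighbours of HTR5 were read as well, a choice made after their values were seen. AT4G40042, annotated as a signal peptidase subunit, averaged 47.3 ± 8.05 TPM in T31A and 15.4 ± 3.22 TPM in efs, and AT4G40045, an uncharacterized protein gene, averaged 93.0 ± 6.43 and 39.2 ± 1.66 TPM in the same groups. K36A seedlings had means of 57.4 TPM for AT4G40042 and 69.0 TPM for AT4G40045, and Col seedlings had means of 12.9 and 44.5 TPM. The next gene on the chromosome, AT4G40050, averaged 40.4 TPM in T31A and 38.7 TPM in efs and was not called (adjusted p = 0.356).

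Genes of the replication-linked H3.1 and other H3 forms were higher in T31A, with 6 of 7 tested members rising, against 20.6% of all tested genes, and none falling. HTR2 (AT1G09200), an H3.1 gene, had 169, 166 and 187 TPM in T31A, against 94.5, 83.6 and 83.3 TPM in efs. Every T31A library lay above every efs library, and the log2 difference was 0.99 (SE 0.06, adjusted p = 2.28e-07). HTR13 averaged 58.7 TPM in T31A and 27.1 TPM in efs, and HTR12, which encodes the centromeric form of H3, was not called (-0.11). The median of the 7 was 0.86, against -0.049 for all genes. Their summed level was 543.5 to 607.3 TPM in T31A and 292.7 to 315.0 TPM in efs. The sums were 457.8 to 481.1 TPM in K36A and 297.8 to 373.4 TPM in Col, so the Col range overlapped that of efs. Other histone genes, looked at after their values were seen, included HIS1-3 (AT2G18050), a linker histone gene known to respond to drought, with 550, 526 and 589 TPM in T31A and 144, 127 and 126 TPM in efs. It averaged 522 TPM in K36A and 109.6 TPM in Col. Of 24 cell division genes, 10 rose, 1 fell and 13 were not called, with a median of 0.14. Over all tested genes 20.6% rose and 28.3% fell. The replication helicase gene MCM7 (0.62) and PCNA2 (0.55), which encodes the sliding clamp of DNA polymerases, were among those that rose.

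Genes for H3K36 methyltransferases other than EFS and for readers of the mark were taken as a list, which also holds the H3K4 methyltransferase genes ATX1, ATX2 and ATXR7 and the histone demethylase genes ELF6, REF6 and JMJ30. Of 11 tested members 4 fell, against 28.3% of all tested genes, none rose and 7 were not called, with a median log2 difference of -0.18. ASHH1, a relative of EFS, averaged 11.3 TPM in T31A and 15.05 TPM in efs (-0.39). MRG1 (-0.33) and MRG2 (-0.37), which encode proteins that read H3K36 methylation, also fell, as did ATX2 (-0.23).

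FLC and its relatives, the MADS-box genes that hold back flowering, rose in 3 of 5 tested members and fell in none (median 0.64). Over all tested genes 20.6% rose and 28.3% fell. MAF1 (AT1G77080) had 12.32, 11.57 and 12.04 TPM in T31A seedlings, against 1.29, 1.19 and 1.07 TPM in efs seedlings. This was a rise of 2.57 log2 units (SE 0.10, adjusted p = 6.10e-09), and the T31A level lay near the Col mean of 14.9 TPM while the K36A mean was 1.41 TPM. FLC (AT5G10140) itself had 1.20, 1.14 and 1.18 TPM in T31A and 0.183, 0.275 and 0.327 TPM in efs. The groups were apart (0.78, adjusted p = 1.18e-03), yet both lay below the Col mean of 4.75 TPM, and FLC overlaps the annotated AT5G01675. MAF4 averaged 2.19 TPM in T31A and 1.05 TPM in efs (0.64). MAF2 averaged 21.6 TPM in T31A and 20.8 TPM in efs, its libraries overlapped, and neither it nor MAF3 was called (adjusted p = 0.529 and 0.197). Both were called as higher in T31A once the length and GC trend was removed, and MAF5 was below the level for testing.

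Other flowering genes moved in both directions. Among the floral promoters, 1 of 7 tested genes rose and 4 fell, against 20.6% and 28.3% of all tested genes. SEP3, a floral organ MADS-box gene, had 9.14, 9.62 and 10.0 TPM in T31A and 25.7, 25.3 and 22.5 TPM in efs (log2 difference -1.27), and SPL9, an age-pathway factor, rose by 0.68. FT, the mobile flowering signal, averaged under the level for testing. Of 10 floral repressors 5 rose and 3 fell, against the same 20.6% and 28.3%. The AP2-like genes SNZ (1.099), TOE1 (0.92), TOE2 (0.79) and SMZ (0.57) rose, while TEM1, a repressor of FT, fell by 0.77. The lowest member was TFL1, which keeps shoot meristems from flowering, at 0.560 TPM in T31A and 1.73 TPM in efs (-0.80).

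The 15 largest rises in T31A held 2 kinds of genes: those that were at or near the Col level in T31A and low in efs, and those that were low in both efs and Col and high in T31A. CRTISO (AT1G06820), the carotenoid isomerase, belonged to the first kind. It had 26.95, 28.71 and 27.71 TPM in T31A seedlings, against 1.68, 1.57 and 1.71 TPM in efs seedlings, with means of 4.43 TPM in K36A and 33.4 TPM in Col. No T31A library came near an efs library, and the log2 difference was 3.44 (SE 0.08, adjusted p = 3.07e-10). AT5G56380 and AT2G04230, which encode F-box proteins, averaged 21.7 and 20.2 TPM in T31A, 1.81 and 2.26 TPM in efs, and 21.1 and 20.7 TPM in Col. The acyltransferase gene AT1G03940, the kinase gene AT4G11900, the dehydrogenase-fold gene AT1G09500 and MAF1 were likewise lowest in efs. AT1G03940 overlaps AT1G04227, and AT4G11900 overlaps AT4G11890.

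The second kind was led by CYP71A12 (AT2G30750), a cytochrome P450 of indolic defence compound synthesis. It had 40.8, 41.3 and 42.8 TPM in T31A seedlings, against 0.354, 0.340 and 0.657 TPM in efs seedlings, the largest rise of the comparison at 4.88 log2 units (SE 0.10, adjusted p = 1.41e-10). The means were 2.25 TPM in K36A and 2.79 TPM in Col, so T31A alone was high. AT1G26390 and AT1G26380, neighbouring genes of the FAD-binding berberine family, averaged 14.5 and 14.8 TPM in T31A, and 0.0210 and 0.537 TPM in efs. AT1G26390 was listed at 0 in 2 efs libraries. Beside them on the chromosome, AT1G26410 of the same family averaged 5.27 TPM in T31A and 0.506 TPM in efs. AT1G26420, also of this family and run, differed less, at 3.40 TPM in T31A and 1.96 TPM in efs (0.58). The peroxidase genes PER4 and AT1G14550 and the germin-like gene GLP9 also stood out: PER4 averaged 25.8 TPM in T31A, 2.21 TPM in efs and 2.38 TPM in Col. GLP9 averaged 29.2 TPM in T31A and 2.01 TPM in efs, and AT1G14550 averaged 11.2 TPM in T31A while it was listed at 0 in 2 efs libraries. The last 2 of the 15 encode seed storage proteins, SESA5 and CRU3, and are described with the seed genes.

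Upstream sequences of CYP71A12 and AT1G26380 are shown because these genes stand for the second kind. Each is the 250 bases before the annotated start, from RefSeq on TAIR10.1, with any match to the 6 motifs searched in capitals.
CYP71A12, chr2:13101372-13101621, minus strand: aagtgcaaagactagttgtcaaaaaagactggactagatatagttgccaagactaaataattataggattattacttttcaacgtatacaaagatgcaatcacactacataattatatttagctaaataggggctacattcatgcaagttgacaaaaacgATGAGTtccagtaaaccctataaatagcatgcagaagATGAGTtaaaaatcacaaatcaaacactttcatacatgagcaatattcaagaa
AT1G26380, chr1:9128569-9128818, minus strand: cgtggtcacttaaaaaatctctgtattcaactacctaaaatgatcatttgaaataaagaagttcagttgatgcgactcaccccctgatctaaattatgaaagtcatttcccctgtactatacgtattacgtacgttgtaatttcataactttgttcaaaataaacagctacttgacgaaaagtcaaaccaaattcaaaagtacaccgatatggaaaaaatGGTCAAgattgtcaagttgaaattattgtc
The motifs, read on both strands, were as follows. CACGTG is the G-box and AAATATCT the evening element of the clock. ACTCAT is the proline response element, and CGCGTT is known from rapid stress responses. The W-box TTGACC is the site of WRKY factors, and TGTCTC is the auxin response element. CYP71A12 held ACTCAT at 2 places, both as its reverse complement, and AT1G26380 held 1 W-box. A W-box was found in 4 of the 15 largest rises (26.7%) and in none of the 15 largest falls, against 12.2% of all 23744 promoters searched. Among the 2-fold calls it lay before 64 of 410 genes higher in T31A and 58 of 509 lower genes. A G-box lay before 1 of the 15 largest rises and 3 of the 15 largest falls (7.08% of all promoters searched), and CGCGTT before none and 1 (2.75%). The evening element lay before 1 rise and no fall, and TGTCTC before 1 of each. A match describes the letters in this window and shows no binding.

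**Figure D2:**
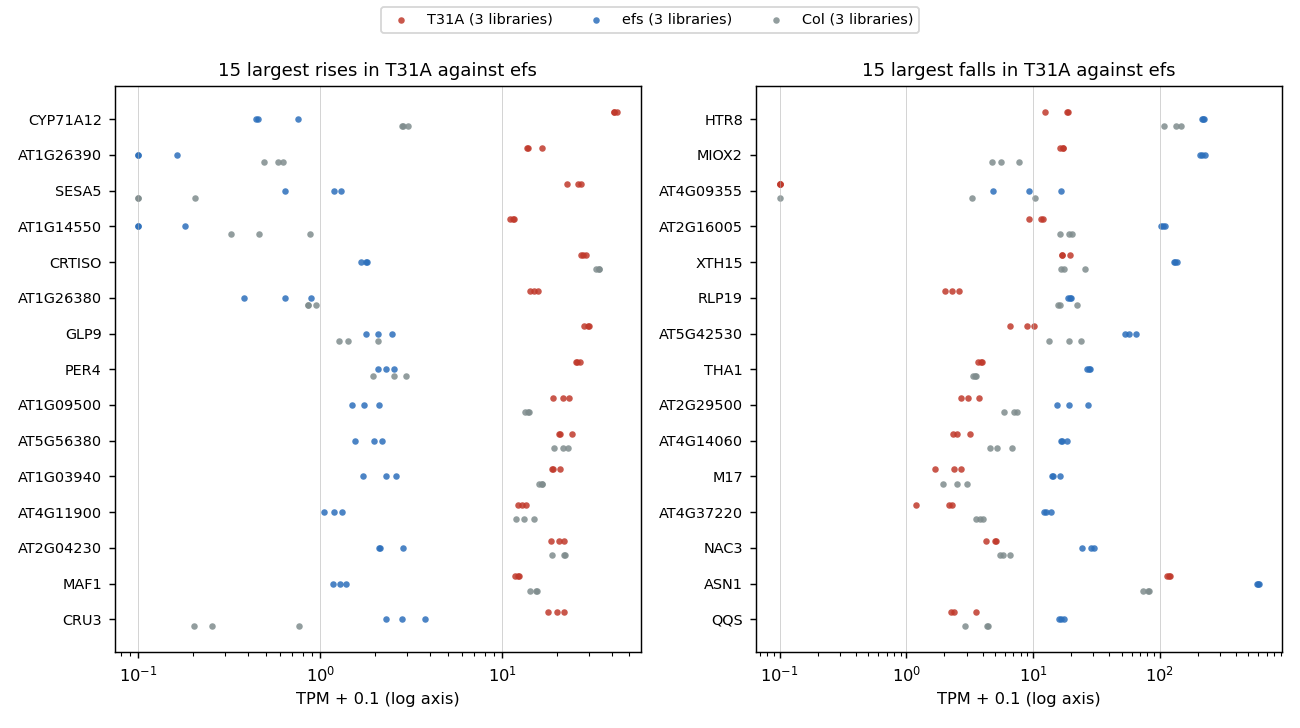
TPM + 0.1 on a log axis for the 15 largest rises (left) and 15 largest falls (right) of T31A against efs, with 3 points per genotype for T31A, efs and Col. In every row the T31A and efs points are apart; the Col points lie with T31A in rows such as CRTISO, MAF1 and THA1, with efs in rows such as PER4 and RLP19, and below both in SESA5 and CRU3.

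In all 15 of the largest falls the efs mean was the highest of the 4 genotypes. RLP19 (AT2G15080), a receptor-like protein gene, had 2.18, 2.52 and 1.91 TPM in T31A and 18.8, 19.8 and 19.6 TPM in efs. The Col mean was 18.0 TPM and the K36A mean 7.91 TPM, so T31A was the low genotype. AT4G09355, an uncharacterized gene, was listed at 0 in all T31A and K36A libraries and had 16.5, 4.75 and 9.18 TPM in efs; it overlaps AT4G05715.

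MIOX2 (AT2G19800) had the largest fall after HTR8. It encodes a myo-inositol oxygenase and is known to rise when sugar is short. Its level was 16.3, 17.2 and 17.3 TPM in T31A seedlings, against 215, 227 and 210 TPM in efs seedlings, and the means in K36A and Col were 7.61 and 5.93 TPM. The log2 difference was -3.61 (SE 0.05, adjusted p = 4.83e-12). THA1, a threonine aldolase gene, averaged 3.74 TPM in T31A and 27.4 TPM in efs. XTH15, a cell wall xyloglucan enzyme gene also known as XTR7, averaged 17.7 TPM in T31A and 133 TPM in efs. The lipid-recognition gene AT2G16005 averaged 10.8 TPM in T31A, 106 TPM in efs, 56.8 TPM in K36A and 18.6 TPM in Col. The NAC factor gene NAC3, the late embryogenesis gene M17, the cold acclimation family gene AT4G37220, the lipid transport family gene AT4G14060, the small heat shock family gene AT2G29500, the uncharacterized AT5G42530 and the starch-linked orphan gene QQS fell by 2.302 to 2.661 log2 units.

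Genes known to be switched on by sugar shortage fell as a group. Of 28 tested members 23 fell, against 28.3% of all tested genes, 1 rose and 4 were not called. At 2-fold or more 13 fell, against 2.61% of all genes. The median log2 difference was -0.85, against -0.049 for all genes, and the summed level was 2806.9 to 2899.1 TPM in T31A and 6537.8 to 6842.1 TPM in efs. ASN1 (AT3G47340), also known as DIN6, encodes an asparagine synthetase of dark-grown or starved tissue. It had 121, 119 and 115 TPM in T31A, against 592, 603 and 597 TPM in efs, and fell by 2.33 log2 units (SE 0.04, adjusted p = 3.32e-11), and it overlaps AT3G47341. The senescence gene SEN1 averaged 149 TPM in T31A and 575 TPM in efs, and the raffinose synthase family gene DIN10 averaged 712 TPM in T31A and 2237 TPM in efs. Members that break down branched amino acids also fell: MCCA, a subunit of methylcrotonyl-CoA carboxylase, averaged 34.0 TPM in T31A and 123 TPM in efs, and BCAT2, a branched-chain aminotransferase, averaged 11.7 and 38.6 TPM in the same groups. The trehalose phosphate synthase genes TPS8, TPS9, TPS10 and TPS11 fell by 0.77 to 1.43 log2 units, and the factor gene BZIP1 fell by 1.35. TPPA, a trehalose phosphatase gene, was the 1 member that rose (0.44). The sums were 2642.8 to 2809.9 TPM in K36A and 2198.9 to 2294.5 TPM in Col, both nearer to T31A than to efs. Every T31A sum was above every Col sum.

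ERD5 (AT3G30775) encodes proline dehydrogenase, the first enzyme of proline breakdown. It had 121, 107 and 119 TPM in T31A seedlings, against 567, 573 and 495 TPM in efs seedlings, a fall of 2.22 log2 units (SE 0.06, adjusted p = 8.66e-10). The Col mean was 32.9 TPM, so both were above the wild type. AT5G38710, annotated in the same family, averaged 2.84 TPM in T31A and 6.74 TPM in efs. P5CS1, the synthesis enzyme that limits proline under stress, moved the other way, with 22.1 TPM in T31A and 15.4 TPM in efs (0.50). Of 9 tested genes of proline synthesis and breakdown, 3 rose and 5 fell, against 20.6% and 28.3% of all tested genes. Their median was -0.17, and with 1 library left out 3 to 5 fell, the 3 without efs replicate 2.

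Sequences before the starts of ERD5, THA1 and ASN1 are shown because these amino acid genes fell together and ACTCAT is a known element of the ERD5 promoter, read by bZIP factors after proline or low osmolarity. Motifs are in capitals as above, and ATGAGT is the reverse complement of ACTCAT.
ERD5, chr3:12451557-12451806, minus strand: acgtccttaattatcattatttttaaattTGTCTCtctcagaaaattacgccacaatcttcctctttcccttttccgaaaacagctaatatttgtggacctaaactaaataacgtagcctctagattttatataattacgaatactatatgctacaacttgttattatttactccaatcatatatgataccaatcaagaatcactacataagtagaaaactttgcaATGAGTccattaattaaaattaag
THA1, chr1:2747968-2748217, minus strand: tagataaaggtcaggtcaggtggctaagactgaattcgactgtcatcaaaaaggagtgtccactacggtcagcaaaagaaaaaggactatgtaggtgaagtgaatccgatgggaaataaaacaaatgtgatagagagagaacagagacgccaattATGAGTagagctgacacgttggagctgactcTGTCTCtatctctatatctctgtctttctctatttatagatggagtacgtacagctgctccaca
ASN1, chr3:17441432-17441681, minus strand: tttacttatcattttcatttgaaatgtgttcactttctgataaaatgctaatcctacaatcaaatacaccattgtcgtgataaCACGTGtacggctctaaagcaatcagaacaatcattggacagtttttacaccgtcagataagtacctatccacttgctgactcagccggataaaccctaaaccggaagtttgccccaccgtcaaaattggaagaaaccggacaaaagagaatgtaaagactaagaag
ERD5 and THA1 each held ACTCAT and TGTCTC, and ASN1 held a G-box. ACTCAT was present before 5 of the 15 largest falls (33.3%) and 2 of the 15 largest rises, against 12.1% of all promoters searched. Over the 2-fold calls its share was 13.7% of genes higher and 14.9% of genes lower in T31A, and it was 10.7% of the sugar starvation genes.

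Nitrate-linked genes were split. Of 20 tested members 6 rose and 7 fell, against 20.6% and 28.3% of all tested genes, with a median of 0.03. BT1 (AT5G63160), which encodes a BTB-domain protein, had 46.0, 46.8 and 48.6 TPM in T31A, against 196, 200 and 194 TPM in efs, and its relative BT2 averaged 124 TPM in T31A and 343 TPM in efs. K36A and Col had BT1 means of 59.8 and 59.2 TPM, so efs stood apart. ASN2, an asparagine synthetase gene known to respond to light and sugar opposite to ASN1, rose by 0.89, with 161 TPM in T31A and 86.4 TPM in efs, and the nitrite reductase gene NIR1 rose by 0.80.

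Cell wall genes of the XTH family, whose enzymes cut and rejoin xyloglucan, were lower in T31A. Of 29 tested members 21 fell, against 28.3% of all tested genes, and 3 rose, with a median of -0.58, and 6 fell by 2-fold or more, against 2.61%. TCH4 (AT5G57560), a touch-induced and brassinosteroid-induced member, had 236, 240 and 242 TPM in T31A, against 707, 758 and 704 TPM in efs. It fell by 1.59 log2 units (SE 0.04, adjusted p = 7.58e-10) while its Col mean was 34.5 TPM and its K36A mean 101.4 TPM, so the order was efs, T31A, K36A and Col. XTH23 averaged 23.1 TPM in T31A and 96.5 TPM in efs, and XTH17 averaged 27.5 and 74.5 TPM in the same groups. The EXORDIUM family, known from brassinosteroid and carbon responses, had 5 of 7 members lower, against the same 28.3%, and none higher, with a median of -0.44. EXL1 averaged 110.9 TPM in T31A, 305 TPM in efs and 3.59 TPM in Col. Of 22 expansins, which loosen walls, 8 rose and 8 fell, against 20.6% and 28.3% of all tested genes, with a median of 0.06. With 1 library left out 8 to 9 rose and 5 to 7 fell, the 5 without efs replicate 2. EXPA2 (1.75) and EXPA5 (1.27) rose and the expansin-like EXLA1 fell by 1.01. EXPA7 and EXPA18, known as root hair genes, are in this list too and fell by 0.997 and 1.13.

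**Figure D3:**
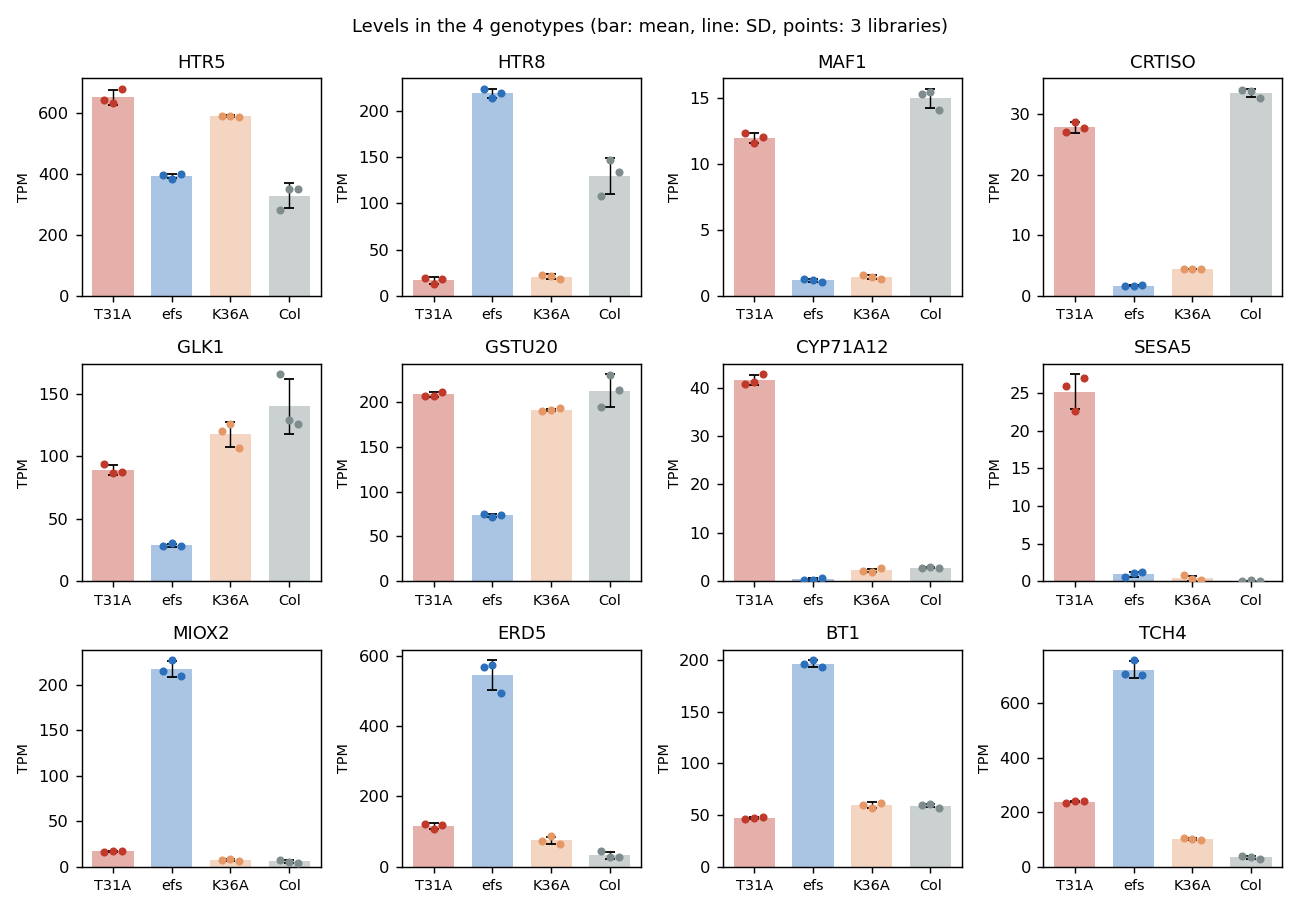
TPM in T31A, efs, K36A and Col seedlings for 12 genes, with bars for the mean, lines for the SD and points for the 3 libraries. CRTISO and MAF1 are high in T31A and Col alone, CYP71A12 and SESA5 in T31A alone, MIOX2, ERD5, BT1 and TCH4 are highest in efs, and HTR8 is low in both lines labelled as H3.3 knockouts.

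Aliphatic glucosinolate synthesis, which makes the methionine-derived mustard oil precursors of Arabidopsis, was higher in T31A in nearly every step. Of 19 tested genes 17 rose, against 20.6% of all tested genes, and none fell, with a median of 0.76. At 2-fold or more 7 rose, against 2.13% of all tested genes. GSTU20 (AT1G78370), a glutathione transferase of the pathway, had 207, 207 and 212 TPM in T31A, against 75.1, 72.0 and 73.5 TPM in efs. The log2 difference was 1.49 (SE 0.04, adjusted p = 7.56e-10), and K36A (191 TPM) and Col (213 TPM) lay with T31A. The side-chain genes IPMI1 and IPMI2 averaged 55.1 and 94.1 TPM in T31A and 24.4 and 42.2 TPM in efs. CYP79F1, which starts the core structure, averaged 36.4 TPM in T31A, 14.5 TPM in efs and 97.7 TPM in Col. Of the pathway's MYB regulators, MYB29 rose by 1.25 and MYB28 by 0.69. Summed levels were 1034.3 to 1058.6 TPM in T31A, 564.5 to 613.6 TPM in efs and 1771.6 to 1986.4 TPM in Col.

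The indolic branch moved at single genes. Of 21 tested genes 9 rose and 4 fell, against 20.6% and 28.3% of all tested genes, with a median of 0.12. Besides CYP71A12, the largest were IGMT2, a methyltransferase, at 14.05 TPM in T31A and 3.574 TPM in efs, and CYP81F2, an indole glucosinolate hydroxylase, at 20.4 and 7.86 TPM in the same groups. Col was lower still, at 1.43 TPM for IGMT2 and 1.98 TPM for CYP81F2. CYP79B3, at the start of the branch, fell by 0.66, and PAD3, the last enzyme of camalexin synthesis, was not called at 3.488 TPM in T31A and 2.997 TPM in efs. CYP71A13, also in the list, was below the level for testing, with a mean of 0.046 TPM over the 6 libraries.

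In the carotenoid pathway 13 of 18 genes rose (10 to 13 with 1 library left out), against 20.6% of all tested genes, and none fell, with a median of 0.40. ABA4, a neoxanthin synthesis gene, averaged 42.8 TPM in T31A and 20.4 TPM in efs, and CCD4, a carotenoid cleavage gene, averaged 113.7 TPM in T31A, 62.1 TPM in efs and 266 TPM in Col. Of 15 greening regulators, against the same background, 12 rose and 1 fell, with a median of 0.30. The list mixes activators with PIF1, PIF3, PIF4 and PIF5, known to hold greening back, so its count gives no direction of greening. GLK1 (AT2G20570), a factor that switches on chloroplast genes, had 93.6, 86.4 and 87.4 TPM in T31A, against 27.8, 30.3 and 27.9 TPM in efs, a rise of 1.60 log2 units (SE 0.05, adjusted p = 2.63e-09). Its relative GLK2 rose by 0.90, and both were below their Col means of 140 and 150 TPM. Chlorophyll synthesis had 11 of 15 genes higher and none lower (median 0.21), led by PORB at 0.72 and PORC at 0.68. Nuclear photosynthesis genes had 18 of 34 higher and 1 lower (median 0.16), with no change of 2-fold, and the antenna gene LHCB2.1 had the largest rise at 0.54. Their count of higher genes depended on single libraries: it was 10 without T31A replicate 3 and 24 without T31A replicate 2.

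Nutrient genes also rose in part. Of 18 iron deficiency genes 12 rose and 5 fell, against 20.6% and 28.3% of all tested genes. At 2-fold or more 6 rose, against 2.13%, and the median was 0.48. The list also holds the ferritin genes FER1 and FER4, known to rise with iron excess, so its count is not of deficiency-induced genes alone. OPT3, a transporter of iron in the phloem, averaged 167 TPM in T31A and 60.1 TPM in efs, and NAS4, a nicotianamine synthase gene, averaged 26.6 and 8.37 TPM in the same groups. The bHLH factor gene BHLH100 averaged 19.0 TPM in T31A and 7.20 TPM in efs. The root uptake genes of the list went the other way, with falls of 0.81 for the iron transporter IRT1, 0.94 for the reductase FRO2 and 0.71 for their regulator FIT. Of 16 phosphate starvation genes 9 rose and 2 fell (median 0.46). SPX1, a phosphate sensor, averaged 50.6 TPM in T31A, 14.2 TPM in efs and 85.1 TPM in Col, and the root transporter PHT1;1 fell by 0.49.

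Root markers were lower in T31A beside these root uptake genes. All 9 tested root hair markers fell, by 0.70 to 1.36 log2 units with a median of -1.12, against 28.3% of all tested genes. PRP3, a root hair wall protein, had 37.3, 35.6 and 35.1 TPM in T31A, against 84.5, 78.6 and 79.1 TPM in efs. Their summed level was 70.1 to 83.6 TPM in T31A, 178.2 to 186.4 TPM in efs, 215.6 to 246.5 TPM in K36A and 111.9 to 182.5 TPM in Col, so T31A was the lowest of the 4 genotypes. Of 20 root cell markers, a list that shares members with the root hair list, 13 fell and 1 rose (median -0.35). With 1 library left out 10 to 13 of these markers fell. Their sums were 2888.9 to 2998.5 TPM in T31A and 3592.9 to 3731.6 TPM in efs, and PLT1, PLT2, WOX5, ESB1 and NRT2.1 were below the level for testing. In whole seedlings, fewer cells of a type and less RNA per cell cannot be told apart, and the part of root tissue in the falls of IRT1, FRO2, FIT and PHT1;1 was not tested. The other marker lists are read against the 20.6% of all tested genes that rose and the 28.3% that fell. Phloem and xylem markers fell in 5 of 10 and rose in none (median -0.27). Of 9 guard cell markers 3 rose (1 to 2 with 1 library left out) and 1 fell (median 0.07). Of 12 shoot apex and leaf markers 4 rose and 1 fell (median 0.13), among them KNAT1, a meristem homeobox gene, at 21.2 TPM in T31A and 10.2 TPM in efs. Of the flower and pollen markers PI alone could be tested, at 1.19 TPM in T31A and 3.92 TPM in efs, with VGD1 at 0 in the 6 libraries.

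Seed protein genes were uneven. Of 9 tested seed storage and oil body genes 6 rose and 2 fell, with a median of 1.20. Over all tested genes, the background for each seed list here, 20.6% rose and 28.3% fell. SESA5 (AT5G54740), a seed albumin, had 26.0, 22.7 and 27.1 TPM in T31A, against 0.536, 1.08 and 1.19 TPM in efs, a rise of 3.77 log2 units (SE 0.14, adjusted p = 3.89e-09). Col averaged 0.0346 TPM and K36A 0.409 TPM. CRU3, also known as CRC, a cruciferin, averaged 19.8 TPM in T31A and 2.85 TPM in efs, whereas CRA1, another cruciferin, had 19.5, 16.0 and 19.6 TPM in T31A and 39.7, 38.9 and 36.4 TPM in efs and fell by 1.03. Genes of 1 protein family thus changed in both directions. Late embryogenesis genes, which guard dried tissue, rose in 12 of 21 and fell in 5 (median 0.50). COR15B, a chloroplast cold protein, averaged 40.0 TPM in T31A and 13.2 TPM in efs. The summed levels of this list overlapped, at 2202.0 to 2458.5 TPM in T31A and 2210.9 to 2433.3 TPM in efs. The late embryogenesis gene M17, among the largest falls, is not a member of the list. Of 10 embryo and seed markers, which share members with both lists, 6 rose and 3 fell, with sums of 87.2 to 100.1 TPM in T31A and 88.7 to 92.9 TPM in efs that overlap, and SESA4, FUS3 and LEC2 were below the level for testing. The median of this marker list changed sign in other settings, and the part of seed-derived tissue in the rises of SESA5 and CRU3 was not tested.

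**Figure D4:**
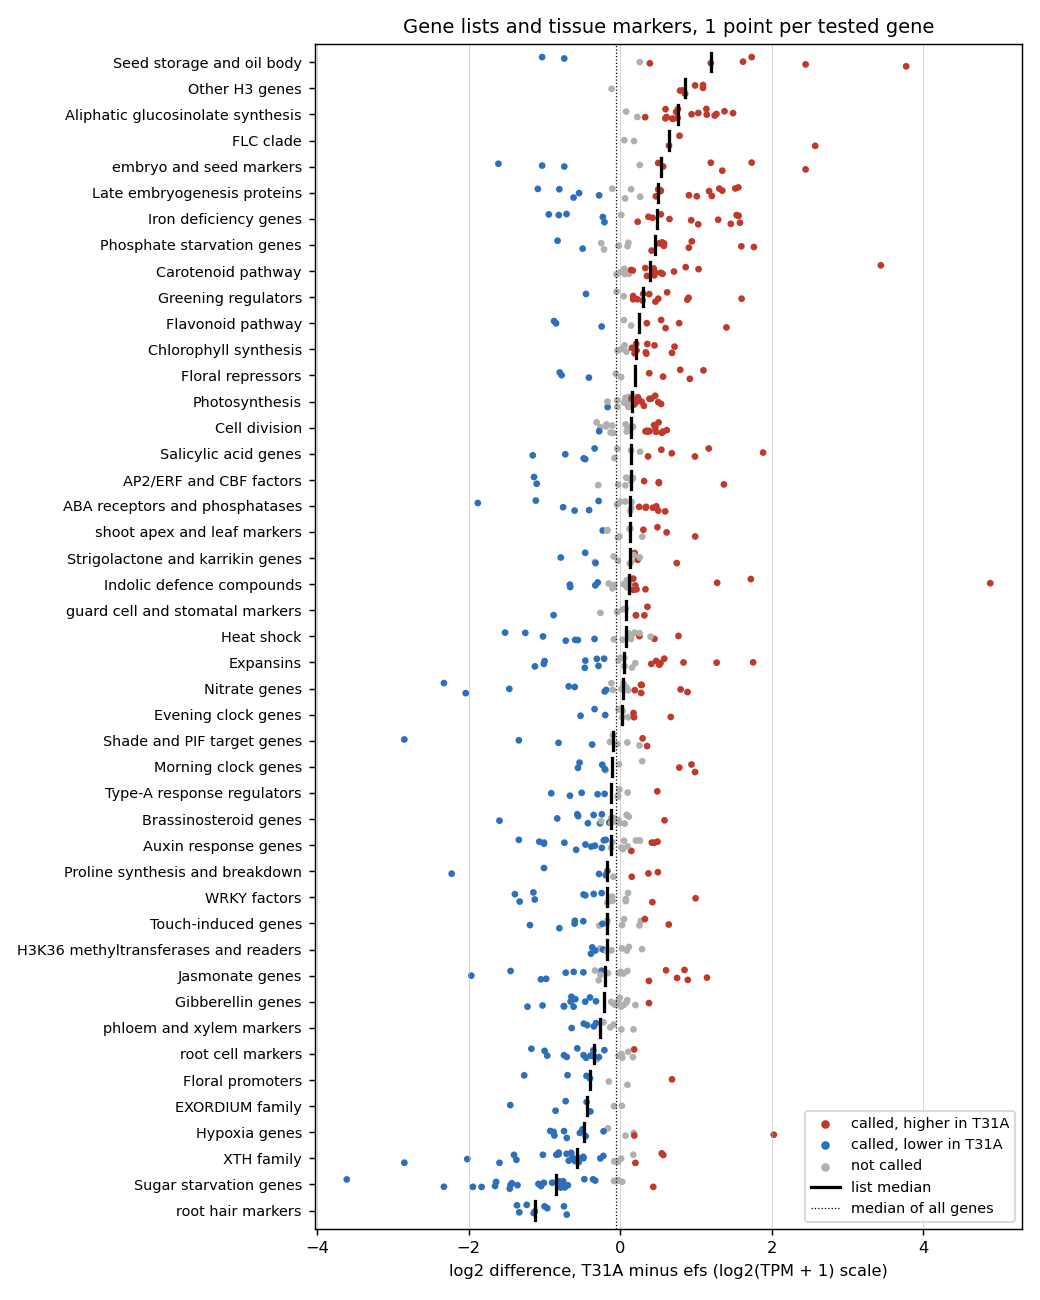
Log2 difference between T31A and efs for each tested member of the gene lists and tissue markers with at least 5 tested members, coloured by call, with the list median as a black bar and the median of all genes (-0.049) as a dotted line. Seed storage genes (1.20), other H3 genes (0.86) and aliphatic glucosinolate genes (0.76) have the highest medians, and sugar starvation genes (-0.85) and root hair markers (-1.12) the lowest.

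The hormone lists are read against the 20.6% of all tested genes that rose and the 28.3% that fell. Gibberellin genes fell in 11 of 22 and rose in 1 (median -0.22), with the synthesis genes GA20OX2 at 5.91 TPM in T31A and 13.05 TPM in efs and GA3OX1 at 0.786 and 3.15 TPM in the same groups. Brassinosteroid genes fell in 9 of 21 and rose in 1 (median -0.12). Auxin response genes fell in 12 of 25 (10 to 12 with 1 library left out) and rose in 4 (median -0.12). IAA29, a repressor of auxin response and a shade gene, averaged 5.48 TPM in T31A and 15.4 TPM in efs. TGTCTC lay before 10 of the 25 auxin response genes (40.0%), against 10.9% of all promoters searched. Cytokinin type-A response regulators and their companions fell in 5 of 10 and rose in 1 (median -0.12), with ARR4 falling by 0.66. Shade and PIF target genes fell in 4 of 11 and rose in 2 (median -0.10). Strigolactone and karrikin genes, which set branching, rose in 3 and fell in 3 of 13 (median 0.13); D27, at the start of strigolactone synthesis, rose by 0.75 and the F-box gene MAX2 fell by 0.46.

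Abscisic acid receptors and phosphatases were split. Of 19 tested members 7 rose and 6 fell (median 0.13), against 20.6% and 28.3% of all tested genes. The receptor genes PYL4, PYL5 and PYL6 fell by 0.60, 1.11 and 1.88 log2 units, with PYL6 at 9.97, 8.50 and 10.1 TPM in T31A, against 36.1, 43.2 and 33.9 TPM in efs. The factor gene ABF3 rose by 0.50.

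Defence and stress factors showed no common direction, read against 20.6% of all tested genes that rose and 28.3% that fell. WRKY factors fell in 8 of 17 and rose in 2 (median -0.17), and WRKY18 averaged 7.83 TPM in T31A and 22.1 TPM in efs. WRKY33, counted in the touch-induced list and not in this one, rose by 0.64. A W-box lay before 3 of the 17 genes of the WRKY list. Salicylic acid genes rose in 6 and fell in 5 of 15 (median 0.14). CBP60G, an activator of salicylic acid synthesis, had 8.10, 7.77 and 6.95 TPM in T31A, against 1.256, 1.904 and 0.919 TPM in efs, and it rose by 1.89 log2 units (SE 0.15, adjusted p = 1.43e-06). The synthesis gene ICS1 rose by 0.68 and PBS3 by 1.17. Jasmonate genes rose in 6 and fell in 8 of 22 (median -0.20): the lipoxygenase genes LOX2 (0.89) and LOX3 (1.15) rose, while the storage protein gene VSP1 fell by 1.45. AP2/ERF and CBF factors rose in 4 and fell in 2 of 13 (median 0.14), with the cold factor CBF3 rising by 1.37. Touch-induced genes fell in 6 and rose in 2 of 15 (median -0.17), with the calmodulin-like TCH3 falling by 1.19. Heat shock genes fell in 7 and rose in 3 of 18 (median 0.07, of either sign in other settings), and HSP18.2 averaged 3.876 TPM in T31A and 12.95 TPM in efs. The small heat shock family gene AT2G29500, among the largest falls, is not a member of this list. Flavonoid genes rose in 5 and fell in 3 of 10 (median 0.25). CHS, which opens the pathway, averaged 68.6 TPM in T31A and 126 TPM in efs, while the glycosyltransferase gene UGT78D1 averaged 54.7 and 20.1 TPM in the same groups. Hypoxia genes fell in 9 and rose in 2 of 14 (median -0.48); LBD41 averaged 8.07 TPM in T31A and 16.2 TPM in efs, and the oxygen-sensing oxidase gene PCO2 ran the other way at 4.41 and 0.320 TPM.

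No clock gene was called at 2-fold or more on the log2(TPM + 1) scale. Morning genes rose in 3 and fell in 4 of 10 (median -0.10), and evening genes rose in 3 and fell in 3 of 11 (median 0.03, of either sign in other settings). Over all tested genes 20.6% rose and 28.3% fell. LNK1, a morning activator, averaged 19.8 TPM in T31A, 9.47 TPM in efs and 47.2 TPM in Col (log2 difference 0.99), and PRR5, an evening repressor, averaged 66.6 TPM in T31A and 96.0 TPM in efs. LHY, which peaks at dawn, was below the level for testing. The hour of harvest is not stated, and its part in these values was not tested. The evening element lay before 6 of the 11 evening genes (54.5%), against 4.89% of all promoters searched.

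The large differences were set beside the wild type to describe where Col lay. Of the 415 genes at least 2-fold higher in T31A, Col was within 1.5-fold of T31A and not of efs in 264 (63.6%). It was within 1.5-fold of efs and not of T31A in 68 (16.4%). In 48 (11.6%) Col was above both and within 1.5-fold of neither. Of the 509 genes at least 2-fold lower, Col was near T31A in 288 (56.6%) and near efs in 106 (20.8%). T31A was thus the genotype near Col in the larger share of both sets. K36A was near T31A in 265 (63.9%) of the higher genes and near efs in 65 (15.7%). Among the lower genes K36A was near T31A in 193 (37.9%) and near efs in 228 (44.8%).

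Large differences were more frequent in short genes with few exons. In the 20% of genes with the shortest spans, up to 1560 bases, 2.96% of the tested genes were 2-fold higher and 6.39% 2-fold lower in T31A, and in the 20% with the longest, from 3611 bases, the shares were 0.953% and 0.799%. Genes with 1 exon had shares of 3.16% and 5.80%, and genes with 15 or more exons 0.224% and 0.673%. The TPM values are per gene span with introns, and the part of this scaling in the shares was not tested. Among genes with a mean of at least 20 TPM, a limit chosen after the values were seen, the shares were 2.29% and 4.93% in the shortest class and 0.402% and 0.688% in the longest. Chromosomes differed little, with 2.05% to 2.24% of genes 2-fold higher and 2.44% to 2.92% 2-fold lower.

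**Figure D5:**
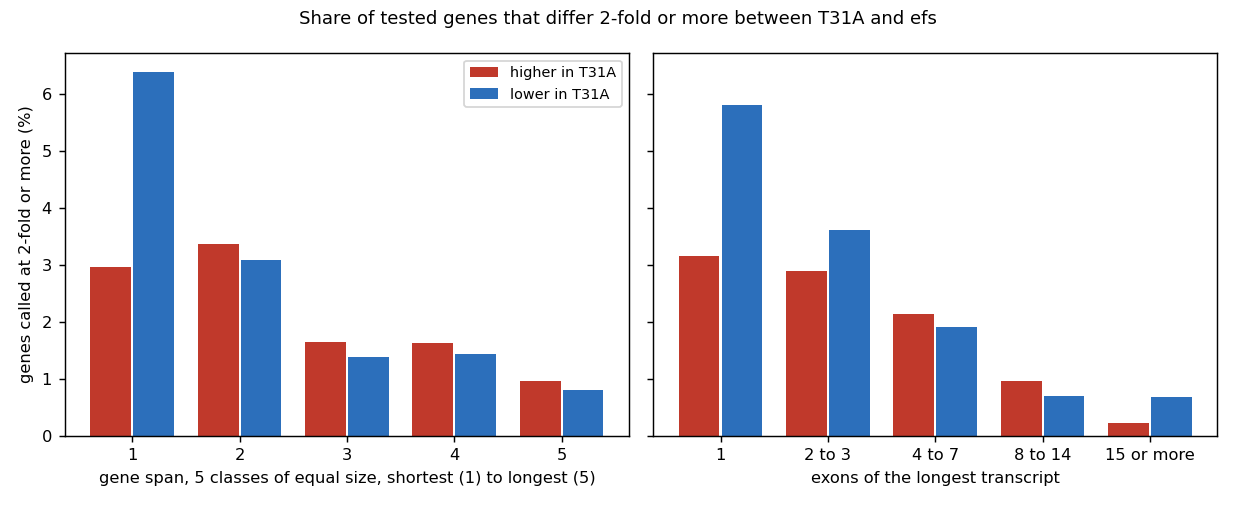
Share of tested genes called at 2-fold or more (vertical axis, percent) that were higher or lower in T31A than in efs, by 5 equal classes of gene span (left) and by exons of the longest transcript (right). Shares are lowest in the longest class, and in the shortest class lower genes (6.39%) outnumber higher genes (2.96%).

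Genes with large differences often lay side by side. Of the 410 nuclear genes 2-fold higher in T31A, 77 (18.8%) had a tested neighbour on the chromosome that was also 2-fold higher, against 3.84% of the other nuclear genes. For the 509 lower genes the count was 96 (18.9%), against 4.77% of the others. One such run, found after values were seen, held CYP71A25, CYP71A22 and CYP71A21, cytochrome P450 genes, which averaged 37.44, 21.84 and 17.604 TPM in T31A and 11.01, 6.142 and 4.304 TPM in efs. Copies of one family can share reads, and overlapping neighbours can too.

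Transcripts of the mitochondrial genome were higher in T31A. Of 52 tested mitochondrial genes 65.4% rose, against 20.6% of all tested genes, and none fell, with a median of 0.57, and they made up 0.0652% to 0.0739% of TPM in T31A and 0.0371% to 0.0435% in efs. Col, at 0.0645% to 0.0716%, lay with T31A. The 61 plastid genes had a median of 0.04, with 1.64% higher and 8.20% lower. How the library kit selected RNA is not stated beyond total RNA, and its part in this result was not tested.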

How the data were processed

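RNA of 12 libraries was measured, and 6 of them were compared. The authors deposited TPM values under column names that read as gene counts, but each column sums to 1000000, so they were treated as TPM. Per the submitters' processing notes, fastp 0.20.1, HISAT2 2.1.10, DESeq2 1.26.0 and TAIR10 were used; the counting tool and its strand setting are not stated. The length in the TPM matched the gene span with introns. Values times span gave whole reads (99.98% within 0.01 read) for the genes found in the TAIR10.1 reference; 171 organelle codes were not found there. Intervals from read numbers would cover counting error only.

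Genes with TPM of at least 1 in 3 of the 6 libraries were fitted as log2(TPM + 1) with limma 3.58.1 (R 4.3.3), no replicate block, a mean-dependent prior and a two-sided moderated test. Benjamini-Hochberg adjustment ran over all 19522 genes, with calls at an adjusted p under 0.05. All adjusted p-values in the text come from this test. The log2(TPM + 1) scale understates changes of low genes. Values are means ± SD over 3 libraries. The test was tried on simulated data.

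The members, 40 gene lists and 7 marker lists were chosen with earlier results of these data known. Named genes are the H3.3 genes, EFS, the FLC clade, the 15 largest rises and falls (called, protein-coding, averaging at least 5 TPM, groups apart), and up to 4 genes per list with the smallest p (2 where none was called); other genes were chosen after their values were seen. List directions are counts and medians, with no set test. Same-numbered libraries did not deviate together (r = 0.029, -0.124 and -0.133), so the numbers were not taken as pairs. Alternatives were other pseudocounts, filters, scalings, fits and libraries left out; limma-voom on recovered reads and removal of a length and GC trend were added after seeing the data.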

Additional observations from a re-analysis of the deposited data

How the results depend on the processing

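The count of 9539 called genes stayed between 7746 (12 libraries of 4 groups in 1 fit) and 9873 (limma-voom on recovered reads) over 18 alternatives, and ranged from 8253 to 8891 when 1 library was left out. The replicate block gave 8713 called genes and the same 924 at 2-fold, and the numbers do not pair the samples. The 2-fold count of 924 depended on the scale for low genes: it was 1413 with a pseudocount of 0.1, 351 with a pseudocount of 5 and 1437 with limma-voom on recovered reads; with 1 library left out it was 902 to 954. No named gene reversed direction in any of the 18. Of 198 called named genes 6 lost the call in at least 1 alternative (CHE, ARR5, YAB1, TMM, SLAC1 and IRX12), and EFS, MAF2 and MAF3 gained one; the cause was not tested. Medians of 3 lists changed sign: evening clock genes (-0.007 to 0.087), heat shock genes (-0.154 to 0.170) and embryo and seed markers (-0.117 to 0.718). With 1 library left out, counts of 1 or 2 called members moved by 1 for WRKY, brassinosteroid and root cell genes that rose and for phosphate starvation, photosynthesis, cell division and guard cell genes that fell. With 3 libraries a group and 17621000 to 34098032 recovered reads each, genes under 1 TPM in 4 or more of the 6 libraries were not tested. Knockout, added HTR5 copy, substitution and efs lesion cannot be told apart in this design.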

Other observations

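Among genes at or near 0 in one group, AT2G15029, AT2G23270, AT5G38910 and AT5G56370 were listed at 0 in all efs libraries, and AT4G02465 and AT4G09355 in all T31A libraries, while the other group passed the level for testing. Genes that were high in efs alone and are members of no list included AT3G15450, an aluminium-induced family protein, at 732 TPM in T31A, 2751 TPM in efs, 881 TPM in K36A and 556 TPM in Col. AT1G02660, an alpha/beta-hydrolase family gene, averaged 22.4 TPM in T31A, 90.3 TPM in efs and 12.9 TPM in Col, and AT1G21400, a thiamine diphosphate-binding enzyme gene, averaged 20.6, 77.8 and 19.2 TPM in the same order. The histone gene AT3G53730 averaged 243 TPM in T31A, 72.8 TPM in efs, 203 TPM in K36A and 47.2 TPM in Col. These genes were chosen after their values were seen, and no explanation was tested.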
